A study of Homo sapiens with 6 samples.

Results

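RMND5A encodes a catalytic subunit of the CTLH complex, a human E3 ubiquitin ligase. It is described here together with the 9 other subunit genes of that complex, RMND5B, MAEA, RANBP9, RANBP10, ARMC8, GID8, GID4, WDR26 and MKLN1, which make 10 members among 27192 listed genes. RMND5A was chosen for its large rise in the contrast reported below, so its values are a description with no test. The other 9 were taken because they belong to the same complex, but earlier results of these data were known when they were listed. All 10 had enough reads to be among the 14078 genes tested. Read counts per gene came from polyA RNA of U87, an established human glioblastoma line. All cells received 2 rounds of lipid-mediated siRNA transfection 24 hours apart and were harvested 24 hours after the second. The control group received siGL2, a nonspecific siRNA, and the knockdown group received 2 siRNAs against the long noncoding RNA LINC00152 in combination. Each group holds 3 libraries, named A, B and C, and the contrast asks how gene expression in these cells differs when LINC00152 is reduced. Because the knockdown used 1 combination of siRNAs against 1 control siRNA, effects of the siRNA sequences and of the loss of LINC00152 cannot be told apart. RNA was taken from whole cultures, in which a change in the make-up of the cells and a change in RNA per cell cannot be told apart.

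The CTLH complex is the human counterpart of the yeast GID ligase, which degrades gluconeogenic enzymes when glucose returns. RMND5A and MAEA each carry a RING-type domain and form the catalytic pair, with RMND5B as the close paralogue of RMND5A. RANBP9 or its paralogue RANBP10, GID8 and ARMC8 build the scaffold, GID4 is a substrate receptor bound through ARMC8, and WDR26 and MKLN1 join modules into larger assemblies and take part in substrate recognition. The ubiquitin-conjugating enzyme UBE2H supplies the ubiquitin.

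The closest 75-base pair of windows in the coding sequences of RMND5A and RMND5B (GENCODE release 29 transcripts) is printed to show how far a read of that length could tell them apart. Capitals mark the bases at which the paralogues differ. The windows span coding bases 771 to 845 of RMND5A and 777 to 851 of RMND5B and differ at 13 positions.
RMND5A: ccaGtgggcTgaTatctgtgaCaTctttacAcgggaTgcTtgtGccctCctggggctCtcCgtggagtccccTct
RMND5B: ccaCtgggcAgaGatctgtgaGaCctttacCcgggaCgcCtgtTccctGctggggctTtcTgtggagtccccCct
The closest windows of the RANBP9 pair, coding bases 619 to 693 of RANBP9 and 283 to 357 of RANBP10, differ at 9 positions.
RANBP9: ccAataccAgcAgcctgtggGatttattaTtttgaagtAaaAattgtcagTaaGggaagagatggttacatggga
RANBP10: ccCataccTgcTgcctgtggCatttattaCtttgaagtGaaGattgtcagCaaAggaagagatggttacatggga
No 75-base stretch of an annotated RMND5A transcript occurs in RMND5B (0 of 6728) or in LINC00152 (0 of 6728), and none of RANBP9 occurs in RANBP10 (0 of 3272). Reads of 1 paralogue were therefore separable from those of the other at this read length, up to sequencing errors.

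The libraries were of similar depth, with 41963120 to 46234763 counted reads and 17741 to 17877 genes with a count. At an adjusted p under 0.05 (edgeR quasi-likelihood test), 64.3% of the tested genes differed, 32.2% upward and 32.2% downward, so a call in this contrast is common. The targeted RNA was low in every knockdown library. LINC00152 (CYTOR) had 650, 608 and 776 counts with siGL2, and 114, 112 and 109 with siLINC00152. Its log2 fold change was −2.51 ± 0.09 (SE; edgeR adjusted p = 4.55e-15). Of the stretches of read length in LINC00152, 20.66% also occur in other genes, mainly in MIR4435-2HG (2512 of 19172, or 13.1%). The part of MIR4435-2HG reads in the LINC00152 counts was not tested. Levels are given as CPM, a gene's count relative to the library total, after TMM scaling, which balances the make-up of libraries. Of the glial and glioma markers, GFAP, S100B, OLIG2, SOX2 and AQP4 stayed below 1 CPM in every library. NES stood at 30.1 to 39.1, SOX9 at 35.1 to 83.3 and SLC1A3 at 30.4 to 45.5 CPM. VIM and CD44 were abundant, at 6749 to 9171 and 2113 to 2748 CPM. Of the markers of other cell types, PTPRC, CD3E, CDH5 and CDH1 were at or near 0, but the immune markers CD68 and CSF1R stood at 286 to 335 and 12.7 to 22.9 CPM, the endothelial marker KDR at 1.08 to 5.67 CPM and the epithelial marker KRT8 at 2.51 to 4.19 CPM. Summed marker levels moved with the knockdown. The 5 smooth muscle and pericyte markers summed to between 49.9 and 50.9 CPM with siGL2 and between 73.9 and 79.9 CPM with siLINC00152. The sums were lower with siLINC00152 for the 10 glial and glioma markers (11410 to 12034 against 9000 to 9307 CPM), the 6 neuronal ones (317 to 327 against 285 to 294 CPM), the 6 immune ones (354 to 358 against 300.1 to 325 CPM) and the 5 endothelial ones (7.06 to 8.27 against 2.94 to 3.14 CPM), and the 5 epithelial ones overlapped. A few abundant genes made up most of some sums: VIM and CD44 the glial one, CD68 the immune one and TUBB3 (207 to 231 CPM) the neuronal one. The part of these marker changes in the results below was not tested.

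RMND5A rose about 5-fold after the knockdown. This gene (ENSG00000153561.12) spans bases 86720173 to 86778041 of chromosome 2 (hg38, plus strand), and its main transcript of 6301 bases ends in a 3′ UTR of 4633 bases. Main transcript here means the longest annotated protein-coding transcript of a gene, with a RefSeq match where there is one. Which transcripts the cells expressed was not measured. The counts of RMND5A were 755, 670 and 742 in siGL2 libraries A, B and C, and 3348, 3268 and 3452 in the siLINC00152 libraries. The same libraries stood at 17.4, 15.5 and 15.7 CPM against 81.5, 77.8 and 81.1 CPM. Every knockdown library lay far above every control library, and the spread within each group was small beside the gap. The means were 16.2 ± 1.04 and 80.1 ± 2.04 CPM (SD, n = 3), a 4.95-fold difference with a log2 fold change of 2.31 ± 0.06 (SE, 95% confidence interval 2.19 to 2.42). By size of rise it stood 35th of the 14078 tested genes and 6th of the 9232 with a mean of at least 10 CPM. A rise of at least 2-fold with an adjusted p under 0.05 was found in 3.08% of tested genes; since RMND5A was selected on this contrast, nothing is read from that share. No exonic base of RMND5A overlaps another annotated gene, and 2.78% of its 75-base stretches also occur in AC125232.2.

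**Figure D1:**
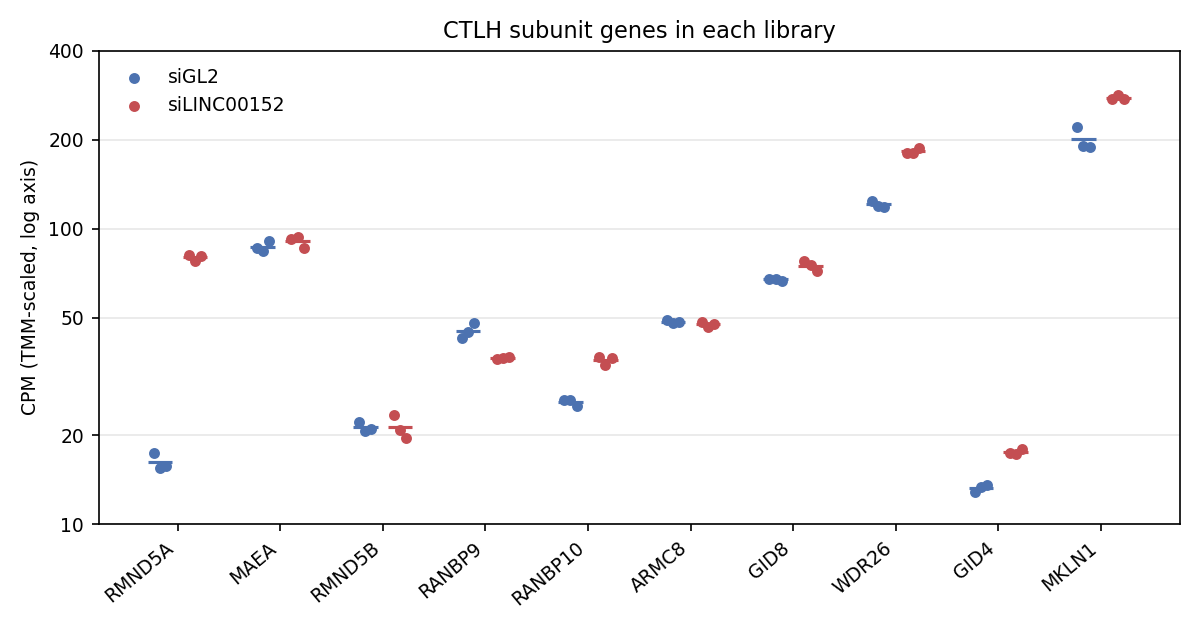
Level of each CTLH subunit gene in CPM (log axis) in the 3 siGL2 libraries (blue) and the 3 siLINC00152 libraries (red), with a bar at each group mean. RMND5A moved from 16.2 to 80.1 CPM, while the groups of RMND5B, MAEA and ARMC8 overlap.

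Neither of the other RING-type subunits passed the test. MAEA, the catalytic partner of RMND5A, stood at 86.8 ± 3.65 CPM with siGL2 and 90.6 ± 4.02 CPM with siLINC00152 (SD, n = 3). The groups overlapped, and a log2 fold change of 0.06 ± 0.05 (SE; 95% confidence interval −0.04 to 0.16) missed the threshold (edgeR adjusted p = 0.288). RMND5B (chromosome 5, 178130996 to 178150565) had 22.2, 20.6 and 21.0 CPM with siGL2 and 23.3, 20.8 and 19.6 CPM with siLINC00152. The groups overlapped around the same mean, 21.2 ± 0.829 and 21.2 ± 1.91 CPM. The log2 fold change of RMND5B was −0.00 ± 0.07 with a confidence interval from −0.14 to 0.14 (edgeR adjusted p = 0.994), which leaves out any change of the size seen in RMND5A. In RMND5B, 5.38% of exonic bases overlap NHP2 on the opposite strand.

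The make-up of the RMND5A and RMND5B pair inverted between the groups. Since RMND5A was chosen for its rise and RMND5B did not pass, this mostly restates the values above. On a scale per length (CPM divided by the length of the main transcript), RMND5A made up 33.6%, 32.7% and 32.6% of the RMND5A and RMND5B total in the siGL2 libraries. In the siLINC00152 libraries it made up 69.3%, 70.7% and 72.8%. RMND5A was thus the lesser paralogue in each control library and the greater one in each knockdown library, with means of 33.0% ± 0.573 and 70.9% ± 1.75 (SD, n = 3). With the length of all exons joined in place of the main transcript, the means were 46.3% and 81.0%, so the order holds on both lengths and the size of the shares depends on the length used.

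The scaffold genes went in different directions. RANBP9 (chromosome 6, 13621498 to 13711564) fell from 42.7, 44.8 and 47.9 CPM with siGL2 to 36.2, 36.4 and 36.8 CPM with siLINC00152. Every knockdown library was below every control library, with a log2 fold change of −0.31 ± 0.05 (SE; edgeR adjusted p = 3.76e-05). Its paralogue RANBP10 (chromosome 16, 67723066 to 67806652) rose from 26.4, 26.2 and 25.1 CPM to 36.9, 34.6 and 36.3 CPM. Those groups did not overlap either, and the log2 fold change was 0.47 ± 0.05 (edgeR adjusted p = 1.59e-07). NOL7 overlaps 10.4% of the exonic bases of RANBP9 on the opposite strand and shares 8.34% of its 75-base stretches. NOL7 itself fell by 0.18 ± 0.06 on the log2 scale (edgeR adjusted p = 0.00937). How strand was treated in counting was not given in the sources used here, and the part of NOL7 reads in the fall of RANBP9 was not tested. Tested against a fold of 1.2 in place of any change, RANBP9 did not pass (edgeR adjusted p = 0.188).

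The share of RANBP9 in the RANBP9 and RANBP10 pair, per length, was 73.5%, 74.5% and 76.6% with siGL2 and 62.7%, 64.3% and 63.5% with siLINC00152. RANBP9 remained the greater paralogue in all 6 libraries. The means were 74.9% ± 1.58 and 63.5% ± 0.799 (SD, n = 3; exact two-sided permutation test, p = 0.1, the smallest that 3 libraries against 3 allow). With the joined exon length the means were 77.0% and 66.2%.

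**Figure D2:**
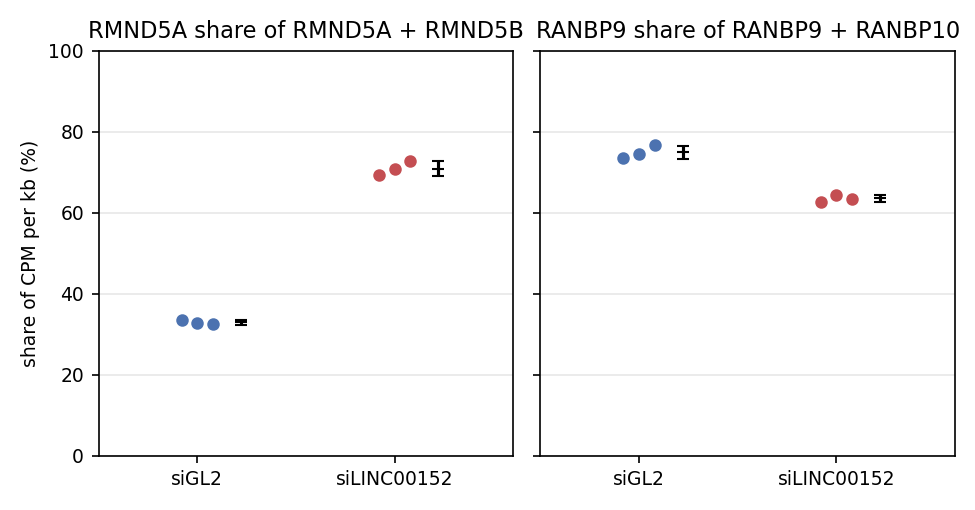
Share of RMND5A in the RMND5A and RMND5B pair (left) and of RANBP9 in the RANBP9 and RANBP10 pair (right), as a percentage of CPM per kb of main transcript; points are libraries and black marks the mean ± SD of 3. RMND5A moved from 33.0% to 70.9% and RANBP9 from 74.9% to 63.5%.

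GID8, a small scaffold subunit, rose slightly. It stood at 67.7, 67.5 and 66.7 CPM with siGL2 and at 77.8, 75.1 and 71.9 CPM with siLINC00152, and the lowest knockdown library was above the highest control library. The log2 fold change was 0.15 ± 0.05 (SE; edgeR adjusted p = 0.00701), a rise of 1.11-fold. With library size alone as the scale, GID8 did not pass (0.09, edgeR adjusted p = 0.112). ARMC8, the armadillo-repeat subunit that holds the receptor GID4, stood at 48.4 ± 0.689 and 47.5 ± 0.869 CPM (SD, n = 3). Its libraries overlapped between groups, at a log2 fold change of −0.03 ± 0.05 (SE, interval −0.13 to 0.07) (edgeR adjusted p = 0.613).

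All 3 subunits of substrate recognition and assembly rose. GID4, the receptor for proteins with particular N-terminal residues (chromosome 17, 18039292 to 18068404), rose from 12.8, 13.3 and 13.6 CPM to 17.5, 17.3 and 17.9 CPM. Its log2 fold change was 0.41 ± 0.06 (SE; edgeR adjusted p = 7.84e-06). WDR26, a WD-repeat subunit (chromosome 1, 224385143 to 224437033, minus strand), rose from 123.9, 119.6 and 118.6 CPM to 180.5, 179.9 and 187.2 CPM. This was the largest rise among the 9 subunits other than RMND5A, at 0.60 ± 0.04 (edgeR adjusted p = 2.33e-10), or 1.51-fold. MKLN1, the kelch-repeat protein muskelin (chromosome 7, 131110096 to 131496636), rose from 220.6, 190.7 and 189.5 CPM to 273.8, 282.4 and 275.3 CPM. Control library A was the highest of its group in MKLN1, yet it lay below every knockdown library, and the log2 fold change was 0.47 ± 0.05 (edgeR adjusted p = 1.34e-07). In none of these 3 genes did the groups overlap.

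MKLN1 shares its locus with other transcripts. Genes of the opposite strand overlap 21.45% of its exonic bases, among them LINC-PINT and MKLN1-AS, and 19.7% of its 75-base stretches occur in AC008264.2. MKLN1-AS rose from 5.41 ± 0.440 to 9.31 ± 0.605 CPM (SD, n = 3), a log2 fold change of 0.78 ± 0.09 (SE; edgeR adjusted p = 1.18e-07), and LINC-PINT rose by 0.29 ± 0.05 (edgeR adjusted p = 5.66e-05). Both stood far below MKLN1 in CPM. Of the 13197 stretches of MKLN1, only 7 occur in LINC-PINT and 0 in MKLN1-AS, against 2599 in AC008264.2. The part of reads from any of these genes in the MKLN1 count was not tested.

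Of the 9 subunits other than RMND5A, 5 rose, 1 fell and 3 missed the threshold. Their median log2 fold change was 0.15 beside −0.00 over all tested genes. Together 6 of 9 were called, close to the 64.3% of all tested genes. In 5 of the 9 the knockdown libraries all lay above the control libraries, as in 33.9% of all tested genes, and in 1 they all lay below, as in 33.8% of tested genes. Apart from RMND5A, the changes of the complex were within 0.60 on the log2 scale, at a median size of change of 0.28 over all tested genes.

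The place of RMND5A in the order of the subunits differed between the groups. Since RMND5A was chosen for its rise, this move mostly restates that rise. Per kb of main transcript in the control libraries, MAEA was highest at 39.1 CPM per kb, followed by MKLN1 (17.95), WDR26 (16.4), GID8 (15.3), RANBP9 (14.5), ARMC8 (10.2), RMND5B (5.22), RANBP10 (4.85), GID4 (3.12) and RMND5A (2.57). Only the neighbours GID8 and RANBP9 overlapped in range over the 3 libraries. RMND5A was thus the lowest of the 10, at 2.46 to 2.76 CPM per kb. In the knockdown libraries MAEA was again highest (40.8), and MKLN1 and WDR26 overlapped in range at 24.8 CPM per kb each. GID8 followed at 17.04, RMND5A at 12.7, RANBP9 at 11.7, ARMC8 at 10.04, RANBP10 at 6.73, RMND5B at 5.22 and GID4 at 4.14 CPM per kb. RMND5A had moved from the 10th place to the 5th, above both RANBP9 and ARMC8. With the joined exon length it moved from the 10th to the 4th place, but MAEA then stood 5th and 6th and MKLN1 led in both groups.

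Among the 9 subunits other than RMND5A, the 5 that rose after the knockdown also have the 5 longest annotated 3′ UTRs, taken from main transcripts. These measured 3164 bases in GID4, 3365 in RANBP10, 3566 in GID8, 4695 in WDR26 and 8911 in MKLN1. RMND5A, which was chosen for its rise, had 4633. The 3 that did not pass had 971 (MAEA), 2495 (ARMC8) and 2536 bases (RMND5B), and RANBP9, which fell, had 867. Over all tested protein-coding genes the direction followed the same order at a smaller size. The median log2 fold change was −0.08 in 5397 genes with a 3′ UTR under 1000 bases, 0.03 in 4517 genes with 1000 to under 3000 bases and 0.10 in 2546 genes with 3000 bases or more. The share of genes called higher was 24.5%, 38.3% and 43.6% in the same classes. When each library's trend over main transcript length was removed (gene length offsets), the medians of the 3 classes became −0.01, 0.02 and −0.01. That length includes the 3′ UTR, so smaller medians follow from the setting itself. The part of length in the rises of the subunits was not tested. Under that setting RMND5A stood at 2.20, WDR26 at 0.47, RANBP10 at 0.40, GID4 at 0.37, MKLN1 at 0.29 and GID8 at 0.11 on the log2 scale, and all 5 of the tested ones still passed, while MAEA passed as well (0.11, edgeR adjusted p = 0.0296). The classes were added after values had been seen, and their limits were set after the lengths had been seen.

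**Figure D3:**
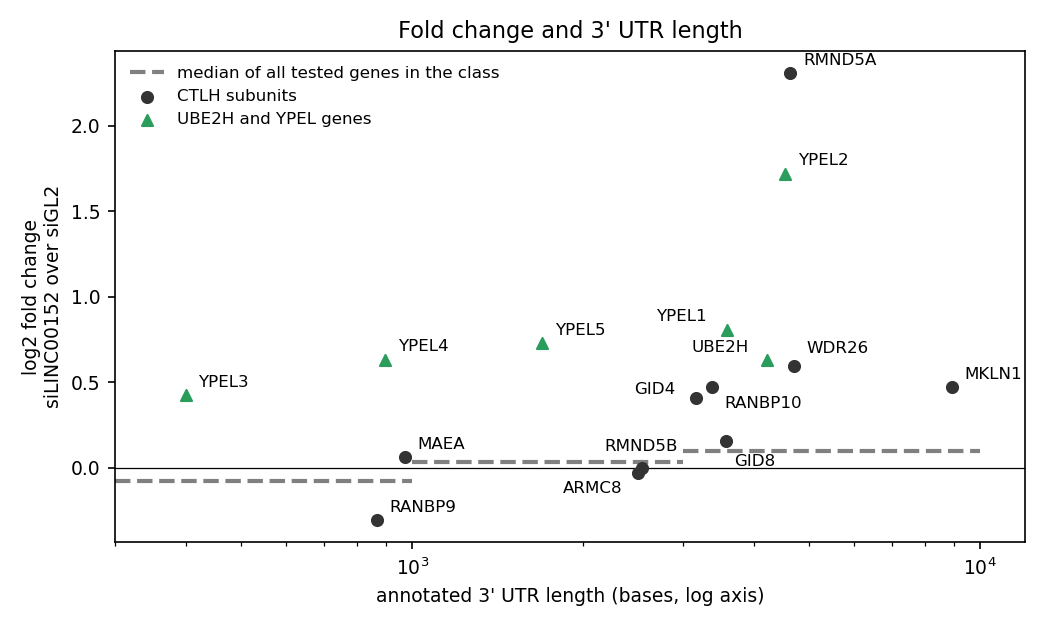
Log2 fold change (siLINC00152 over siGL2) against annotated 3′ UTR length (bases, log axis) for the 10 CTLH subunits (circles) and UBE2H with the YPEL genes (triangles); dashed lines give the median of all tested genes in each length class, −0.08, 0.03 and 0.10. RMND5A stands far above the median of its class.

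UBE2H and the YPEL family were higher throughout. UBE2H, the ubiquitin-conjugating enzyme of the complex, stood at 227.6, 220.7 and 217.7 CPM with siGL2 and at 344.6, 342.9 and 340.8 CPM with siLINC00152. The groups were far apart, and the log2 fold change was 0.63 ± 0.04 (SE; edgeR adjusted p = 5.29e-11). YPEL5, which binds the complex, rose from 44.7, 49.5 and 47.7 CPM to 76.9, 77.2 and 80.7 CPM, by 0.73 ± 0.05 (edgeR adjusted p = 8.18e-11). Its paralogue YPEL2 rose more, from 2.51, 2.41 and 2.81 CPM to 8.25, 7.76 and 9.49 CPM, by 1.72 ± 0.11 or 3.29-fold (edgeR adjusted p = 1.44e-11). YPEL1 rose by 0.81 ± 0.14 (edgeR adjusted p = 4.89e-05), but 52.45% of its exonic bases lie opposite PPIL2, which stood at 0.07 ± 0.06 and did not pass. YPEL3 rose by 0.42 ± 0.08 (edgeR adjusted p = 1.37e-04). YPEL4 had 17, 18 and 22 counts with siGL2 and 34, 28 and 21 with siLINC00152, and its rise of 0.63 ± 0.26 (edgeR adjusted p = 0.0394) did not pass in 10 of the 13 alternative settings, among them 5 of the 6 that leave out 1 library, where the adjusted p reached 0.188. Of the 6 genes of this list all passed upward in the main comparison, with a median of 0.68, against 32.2% of all tested genes. The list was chosen with earlier results of these data known, so nothing is read from that count. YPEL1 to YPEL4 were listed as relatives of YPEL5 and are not established subunits.

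Transcripts of proteins reported elsewhere as targets or binding partners of the ligase went both ways. The ligase acts on proteins, which were not measured here. Among 10 such genes, 5 rose, 2 fell and 3 missed the threshold, and their median log2 fold change was 0.01. Over all tested genes 64.3% were called, 32.2% in each direction. HBP1, a transcriptional repressor of cell cycle genes, rose from 23.3, 22.5 and 22.2 CPM to 59.0, 58.1 and 59.5 CPM. This was the largest rise of the list, 2.60-fold, with a log2 fold change of 1.38 ± 0.05 (SE; edgeR adjusted p = 5.40e-15). COG5 overlaps 15.35% of the exonic bases of HBP1 on the opposite strand and rose by 0.52 ± 0.05 (edgeR adjusted p = 2.03e-08). HMGCS1, an enzyme of cholesterol synthesis, rose from 26.9, 27.5 and 28.6 CPM to 49.3, 47.4 and 48.9 CPM, by 0.81 ± 0.05 (edgeR adjusted p = 2.16e-11), with 14.95% of its exonic bases opposite AC114947.2.

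The glycolytic genes PKM and LDHA passed with small rises, 0.13 ± 0.04 (SE; edgeR adjusted p = 0.0108) and 0.11 ± 0.04 (edgeR adjusted p = 0.0331). With library size alone as the scale neither passed (edgeR adjusted p = 0.212 and 0.429). Without siGL2 replicate C neither passed (edgeR adjusted p = 0.0610 and 0.0508), and the count of risen genes in the list went from 5 to 3. LDHA also failed to pass without siGL2 replicate B (edgeR adjusted p = 0.0694), siLINC00152 replicate B (0.107) or siLINC00152 replicate C (0.0725). ZMYND19 fell from 29.2, 28.4 and 27.4 CPM to 23.2, 20.2 and 20.1 CPM, by 0.42 ± 0.06 (edgeR adjusted p = 5.46e-06). ARHGAP11A fell by 0.47 ± 0.11 (edgeR adjusted p = 7.76e-04), with 15.5% of its exonic bases opposite other genes. NMNAT1, an enzyme of NAD synthesis, stood at −0.14 ± 0.06, and the lamin genes LMNB1 and LMNB2 at −0.09 ± 0.04 and −0.11 ± 0.05 (edgeR adjusted p = 0.0648, 0.0673 and 0.0878). NMNAT1 passed without siGL2 replicate A (edgeR adjusted p = 0.0479) and without siLINC00152 replicate A (0.0326), and LMNB2 passed without siGL2 replicate C (0.0121). With gene length offsets NMNAT1 (edgeR adjusted p = 0.0299) and LMNB2 (0.00522) passed, and with library size alone NMNAT1 (0.00859), LMNB1 (0.00323) and LMNB2 (0.00777) did.

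Of 6 human genes from the same enzyme families as the gluconeogenic enzymes degraded by yeast GID, 3 had enough reads. The list includes mitochondrial forms, and not every gene on it is the direct counterpart of a yeast target. The malate dehydrogenase genes MDH1 and MDH2 fell by 0.48 ± 0.05 and 0.25 ± 0.05 on the log2 scale (SE; edgeR adjusted p = 4.19e-08 and 6.75e-05). MDH1 stood at 183.2, 202.6 and 209.3 CPM with siGL2 and at 141.1, 145.5 and 140.1 CPM with siLINC00152, without overlap. PCK2, the mitochondrial phosphoenolpyruvate carboxykinase, stood at −0.24 ± 0.11 and did not pass (edgeR adjusted p = 0.0782). It passed without siLINC00152 replicate A (edgeR adjusted p = 0.0268) and with library size alone as the scale (0.0260). FBP1, FBP2 and PCK1 had between 0 and 3 counts in each library. The floor of 3 counts was at 0.0634 to 0.0731 CPM, counting error only.

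**Figure D4:**
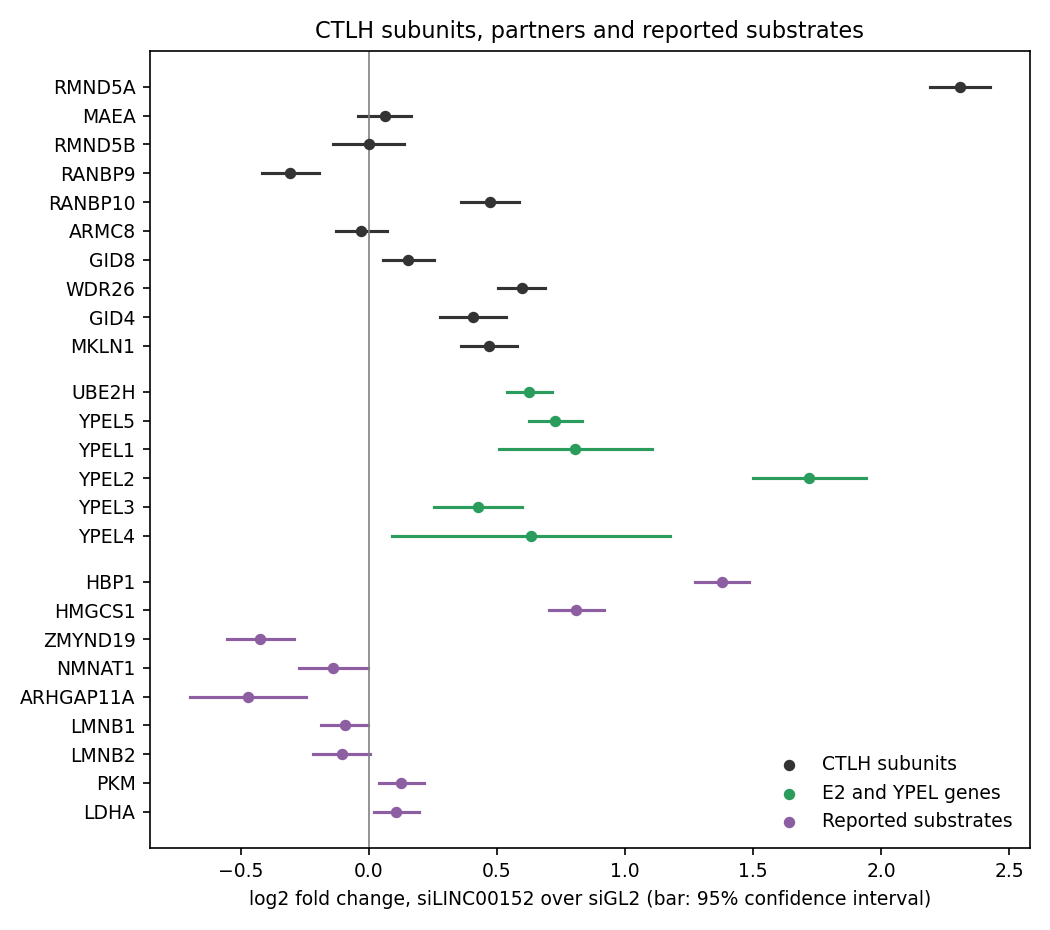
Log2 fold change (siLINC00152 over siGL2) of the CTLH subunits, of UBE2H with the YPEL genes and of 9 of the reported substrates; points are the estimates and bars their 95% confidence intervals. RMND5A (2.31), YPEL2 (1.72) and HBP1 (1.38) stand highest.

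RMND5A and LINC00152 lie on the same arm of chromosome 2. The LINC00152 span begins 676.7 kb beyond the end of RMND5A, so the genes around RMND5A were examined by position. Of 25 other listed genes within 1 Mb of RMND5A, 11 besides LINC00152 were tested, of which 4 were higher, 5 were lower and 2 missed the threshold. Their median log2 fold change was 0.02, and 64.3% of all tested genes were called, 32.2% in each direction. The nearest tested gene, RNF103, a ubiquitin ligase of the endoplasmic reticulum 96.3 kb upstream, rose by 0.21 ± 0.06 (SE; edgeR adjusted p = 0.00216), with 18.04% of its exonic bases opposite AC015971.1. The histone demethylase gene KDM3A rose from 124 ± 2.65 to 181 ± 3.79 CPM (SD, n = 3), by 0.55 ± 0.04 (edgeR adjusted p = 7.95e-10), and the endoplasmic reticulum gene REEP1 rose by 0.83 ± 0.15 from a low level (edgeR adjusted p = 7.73e-05). POLR1A, a subunit of RNA polymerase I, stood at 0.17 ± 0.07 (edgeR adjusted p = 0.0363) with overlapping groups, and its value was −0.02 with gene length offsets. Without siGL2 replicate B or C, or without any 1 of the siLINC00152 libraries, POLR1A did not pass (edgeR adjusted p = 0.0504 to 0.167), nor with library size alone (0.195).

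The 5 genes that fell lay between 506 and 932 kb upstream. ST3GAL5, a sialyltransferase gene, fell by 0.73 ± 0.11 (SE; edgeR adjusted p = 4.00e-06), the transcription factor gene ATOH8 by 0.28 ± 0.07, and the mitochondrial genes MRPL35, PTCD3 and IMMT by 0.26 ± 0.05, 0.18 ± 0.04 and 0.16 ± 0.05 (edgeR adjusted p of 0.00479 or lower). CHMP3 (0.16 ± 0.26) and SNORD94 (0.02 ± 0.37) did not pass. None of the 11 came near the log2 fold change of RMND5A. The read-through gene RNF103-CHMP3 begins inside RMND5A, 949 bases from its start, on the opposite strand. It had 5, 1 and 6 counts with siGL2 and 4, 13 and 12 with siLINC00152, far below the RMND5A counts. On the other side, CD8A, 6.57 kb from RMND5A, had 1, 1 and 0 counts with siGL2 and 0 in each siLINC00152 library.

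**Figure D5:**
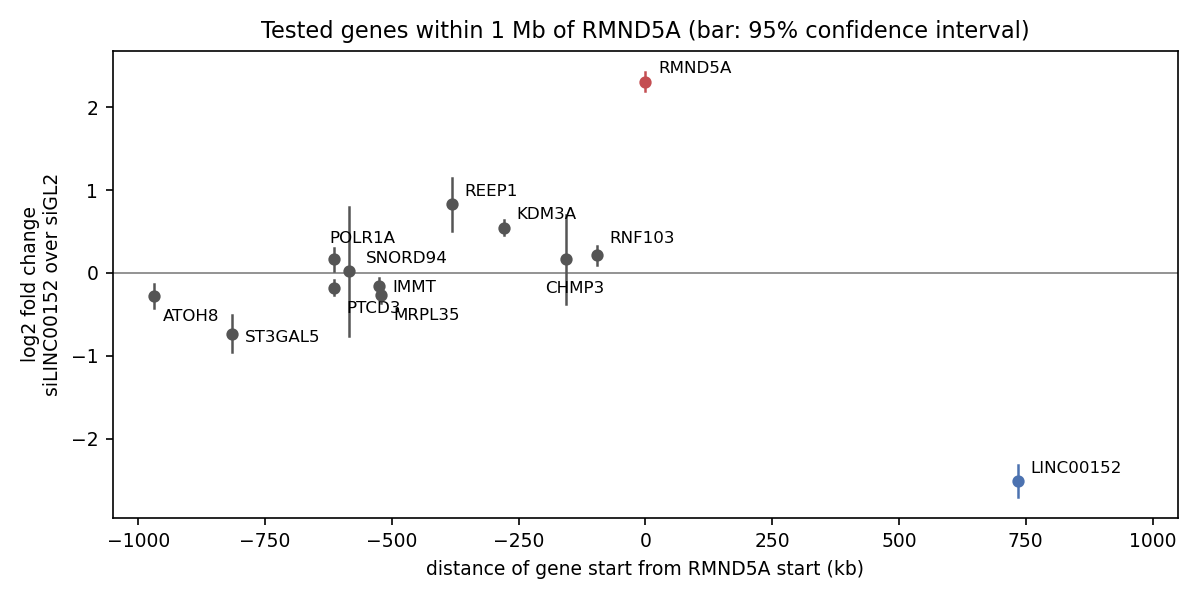
Log2 fold change (siLINC00152 over siGL2) of the tested genes within 1 Mb of RMND5A against the distance of their start from the RMND5A start (kb); bars are 95% confidence intervals. RMND5A (red, 2.31) and LINC00152 (blue, −2.51) lie far from the rest, which range from −0.73 to 0.83.

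The upstream sequences of RMND5A and RMND5B are printed because the make-up of that pair inverted. They come from the RefSeq promoter table (GRCh38.p14), in which 8 of the 10 members were found, and end before the first annotated base of each gene. GID8 and GID4 were not matched. Capitals mark CCAAT and GGGCGG on either strand, where overlapping matches were counted separately. The RMND5A stretch is chr2:86720041-86720172 and the RMND5B stretch chr5:178130764-178130995, both on the plus strand.
RMND5A: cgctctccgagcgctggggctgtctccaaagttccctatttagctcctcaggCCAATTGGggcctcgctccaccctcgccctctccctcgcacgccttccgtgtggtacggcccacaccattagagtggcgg
RMND5B: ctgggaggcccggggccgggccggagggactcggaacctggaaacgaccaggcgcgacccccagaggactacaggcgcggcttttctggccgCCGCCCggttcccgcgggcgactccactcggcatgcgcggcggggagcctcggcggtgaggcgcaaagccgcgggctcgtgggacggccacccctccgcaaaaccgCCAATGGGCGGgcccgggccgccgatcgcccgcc
The RMND5A stretch holds CCAAT 2 times, once on each strand and overlapping, and the RMND5B stretch holds CCAAT once and GGGCGG 2 times. Over the 250 bases before the RefSeq start, both windows were rich in G and C, at 70.0% and 76.0% beside a median of 58.0% over all 35116 windows. They held 28 and 38 CG pairs, beside a median of 11. In the windows of 300 bases, CCAAT was present in 6 of 8 members and in 34.6% of all windows, and GGGCGG in 8 of 8 and in 45.0%. TATAAA was present in 1 of 8 (ARMC8) and in 11.5% of windows, CACGTG in 2 of 8 (MAEA and WDR26) and in 7.26%, ACTTCCGG in 1 of 8 (WDR26) and in 4.14%, and TGACGTCA in 0 of 8 and in 1.85%. A member was counted if any of its windows held the letters, while the share over all windows is per window, so the counts and shares are not alike. Such matches are descriptions of letters and not sites of binding.

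Several genes with the same step between the groups had a library profile close to that of RMND5A. With each gene taken relative to its own siGL2 mean on the log2 scale, the 5 smallest root mean square differences from RMND5A over the 6 libraries were 0.0503 for COL5A1, 0.0503 for PPL, 0.0916 for F3, 0.102 for SLC2A3 and 0.109 for PGM2L1. COL5A1 encodes a chain of type V collagen, PPL periplakin, F3 tissue factor and SLC2A3 a glucose transporter. PPL stood at 13.7, 11.4 and 11.6 CPM with siGL2 and at 63.7, 60.2 and 64.4 CPM with siLINC00152. As in RMND5A, control library A was the highest of its group in PPL, COL5A1 and SLC2A3. In F3 and PGM2L1 control library C was the highest, and knockdown library B was the lowest in all 5. The genes were picked for closeness over the same libraries, so such likeness follows in part from the choice. The measure rests on 6 libraries in 2 groups and mostly reflects the size of the difference between them.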

How the data were processed

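RNA of 6 U87 libraries (3 siGL2, 3 siLINC00152) was made into strand-directional polyA libraries and sequenced as paired 75-base reads, per the labels' protocols. The authors deposited raw read counts for each gene symbol, as whole numbers. Per the submitters' processing notes, hg38 was the build and HISAT, HTSeq, DESeq and bcl2fastq were used, each with no version. Which annotation was counted, how strand was set and what became of reads with several matches was not given in the sources used here. Such reads or antisense reads could move between overlapping genes.

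Everything else was computed from those counts in edgeR 4.0.16 and DESeq2 1.42.0 under R 4.3.3, and in Python 3.11.15 with pandas 2.3.3, scipy 1.17.1 and numpy 2.4.6. filterByExpr (minimum count 10, minimum total 15) kept 14078 genes. Groups were compared by edgeR's robust quasi-likelihood test, two-sided, with TMM scaling, no covariate and Benjamini-Hochberg adjustment over all tested genes. Alternatives were DESeq2, DESeq2 size factors, library size alone, no filter, a fold of 1.2, gene length offsets, a replicate block and leaving out each library. In data simulated for this comparison, 13774 of 13973 tested genes were unchanged. There edgeR recovered 60%, 82%, 95.9% and 100% of 1.25, 1.5, 2 and 4-fold changes and called 7 of the unchanged genes. In the real contrast 64.3% of tested genes were called, so the simulated shares need not hold for it. No 2 libraries of a group agreed within sampling noise (chi-square per degree of freedom 3.02 to 14.5). The labels do not state that replicates were separate cultures; p-values therefore cover the spread among these libraries, which may be technical.

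Of 27192 symbols, 24727 were matched to GENCODE release 29 genes (GRCh38, the assembly of hg38), 518 through another symbol. The members and gene lists were chosen with earlier results of these data known. Named genes are all members, tested genes within 1 Mb of RMND5A, all genes of lists of up to 10, the largest rise and fall of longer lists, and the 5 profiles most like RMND5A; 1 gene that this rule names is not reported here, and antisense partners and the 3′ UTR classes were added after values were seen. Marker lists with genes below 1 CPM in every library were glial and glioma (5 of 10), immune (4 of 6), endothelial (3 of 5), epithelial (3 of 5), neuronal (1 of 6) and smooth muscle and pericyte (1 of 5).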

Additional observations from a re-analysis of the deposited data

How the results depend on the processing

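Across 13 alternative settings, the calls of RMND5B, RANBP10, ARMC8, GID4, WDR26, MKLN1 and LINC00152 stayed on the same side of the threshold in all 13. The log2 fold change of RMND5A ranged from 2.20 (gene length offsets) to 2.36, and from 2.27 to 2.36 when 1 library was left out. Among the other members, the calls of MAEA, RANBP9 and GID8 changed as given with their results, and GID8 also did not pass against a fold of 1.2. Tested against a fold of 1.2, which asks for more than any change, 2337 genes were higher and 2341 lower. Of the lists, CTLH subunits other than RMND5A then had 0 lower (1 in each of the other 12 settings, DESeq2 included). Substrates had 2 higher, relatives of the yeast GID targets 1 lower, and the anaphase-promoting complex 1 higher and 5 lower. Cullin-RING genes had 0 higher (4 with DESeq2) and 1 lower, and genes around RMND5A 2 higher and 1 lower. Both counts of 0 were also 0 at an unadjusted p under 0.05 (edgeR). With library size alone the median of all genes moved to −0.07 and the split to 3755 higher and 5389 lower, against 4529 and 4529; substrates then had 3 higher and 5 lower and cullin-RING genes 2 higher. With gene length offsets substrates had 4 lower, and POLR1A reversed to −0.018. The cause of these moves was not tested. Leaving out 1 library gave 4155 to 4666 genes higher and 4133 to 4670 lower, 3 to 5 substrates higher, and 2 to 4 genes of the anaphase-promoting complex higher. The labels do not say whether a letter marks a shared batch, and 3 libraries per group are too few to tell. Deviations of same-letter libraries correlated at 0.082, −0.013 and 0.070, and not every library correlated best with its own letter. With the letter as a replicate block, 4571 genes were higher and 4584 lower, RMND5A stood at 2.31, LMNB2 passed (edgeR adjusted p = 0.0324) and YPEL4 did not (0.0539). At this depth the simulated comparison, in which most genes were unchanged, recovered 95.9% of 2-fold changes and fewer of the smaller ones.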

Other observations

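Genes of other multi-subunit ubiquitin ligases went both ways. Of 18 genes of the anaphase-promoting complex, its activators and its ubiquitin-conjugating enzymes, 2 rose, 9 fell and 7 missed the threshold, with a median log2 fold change of −0.16. Over all tested genes 64.3% were called, 32.2% in each direction. The largest rise was in the subunit gene CDC23, from 56.7 ± 1.31 to 86.2 ± 2.22 CPM (SD, n = 3), by 0.61 ± 0.05 (SE; edgeR adjusted p = 4.62e-10). The largest fall was in ANAPC13, a small subunit, from 61.5, 70.3 and 71.3 CPM to 35.1, 36.0 and 33.6 CPM. ANAPC13 fell by 0.96 ± 0.06 (edgeR adjusted p = 1.06e-11), with 13.0% of its exonic bases opposite CEP63. Without siGL2 replicate A, 4 genes of the list were higher.

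Of 18 tested genes of the cullin-RING ligases, 4 rose, 6 fell and 8 missed the threshold, around a median of −0.02 on the log2 scale. Among all tested genes, 64.3% were called, 32.2% in each direction. CUL4B, a cullin, fell from 182 ± 0.384 to 121 ± 7.27 CPM (SD, n = 3), by 0.59 ± 0.05 (SE; edgeR adjusted p = 1.13e-09), and the largest rise was that of CUL7, 0.26 ± 0.05 (edgeR adjusted p = 3.60e-04). The differences between these lists and the CTLH genes were not tested.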
